A study of Mus musculus with 11 samples.

Results

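Sca-1+ and Sca-1neg epidermal cells sorted as negative for the tracer were compared in 5 of the 11 RNA-seq libraries of this series. These were 2 of the CD49f+CD34+Sca-1+tdTneg sort and 3 of the CD49f+CD34+Sca-1negtdTneg sort, chosen by their labels alone. All mice were males of the strain CD4Cre R26-tdT (C57Bl6/N), so both groups carried a Cre driven by Cd4 sequences and the tdTomato tracer allele, and each library held the pooled cells of 2 mice. Mice were 29 weeks old for the first replicate of both groups and 32 weeks old for all further ones. Cells were released from dorsal skin with thermolysin and sorted on integrin alpha 6 (CD49f), CD34, Sca-1 and tdTomato. A tdTneg cell is one in which no tracer was seen at the sort, which does not show that Cre was never active. Nothing in the labels says which mice contributed to more than 1 library, so p-values measure the spread between pooled libraries. The groups are called Sca-1+ and Sca-1neg below, and the tdT+ sorts of both fractions, with 3 libraries each, are called traced.

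The hair follicle bulge holds slowly cycling stem cells that carry CD34 and high integrin alpha 6 and rebuild the lower follicle in each hair cycle. Sca-1, a small surface protein made from Ly6a, marks basal cells of the interfollicular epidermis and the upper follicle and is low on bulge cells. Sca-1 and CD34 are also carried by blood vessel endothelium, and Sca-1 by many T cells, so a gate of this kind can admit cells that are not keratinocytes.

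Promoters of 3 genes, each from a gene list that differed between the fractions, are shown because the ETS family members Ets1 and Fli1, which bind a GGAA core, were among the genes that rose. Cyyr1 stands for the endothelial genes (chr16:85550324-85550623, minus strand), Cd3e for the T cell genes (chr9:45009562-45009861, minus strand) and Cxcl14 for the bulge genes (chr13:56296502-56296801, minus strand). Each is RefSeq sequence of GRCm38.p6 from 250 bases before to 50 bases after the start, 300 bases in all, with the letters AGGAAG, searched on both strands, in capitals. The RefSeq start used for Cyyr1 lies inside the gene as GENCODE M21 annotates it, downstream of the gene's outermost start given below.

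Cyyr1: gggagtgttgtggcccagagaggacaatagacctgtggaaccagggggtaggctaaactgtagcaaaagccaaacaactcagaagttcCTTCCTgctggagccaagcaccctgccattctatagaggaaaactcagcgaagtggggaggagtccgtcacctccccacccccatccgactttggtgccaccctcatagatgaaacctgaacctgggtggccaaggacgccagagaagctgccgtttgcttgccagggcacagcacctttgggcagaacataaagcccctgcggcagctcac

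Cd3e: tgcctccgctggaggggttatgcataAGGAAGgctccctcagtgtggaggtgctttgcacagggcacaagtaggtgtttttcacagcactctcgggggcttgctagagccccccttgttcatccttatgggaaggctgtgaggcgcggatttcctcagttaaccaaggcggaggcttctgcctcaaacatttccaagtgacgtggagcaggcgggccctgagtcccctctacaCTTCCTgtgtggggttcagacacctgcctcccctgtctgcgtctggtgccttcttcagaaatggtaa

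Cxcl14: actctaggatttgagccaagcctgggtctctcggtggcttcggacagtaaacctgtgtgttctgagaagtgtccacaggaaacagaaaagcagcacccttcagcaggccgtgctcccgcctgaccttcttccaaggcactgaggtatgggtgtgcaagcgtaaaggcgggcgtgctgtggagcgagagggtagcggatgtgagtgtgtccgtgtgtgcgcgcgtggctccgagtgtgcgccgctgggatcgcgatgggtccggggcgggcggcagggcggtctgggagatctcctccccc

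The letters AGGAAG occurred 1 time in the Cyyr1 window and 2 times in that of Cd3e, and were not in the Cxcl14 window. Of all 32851 mouse promoters of this length, 35.4% held them. They were in 10 of 20 promoters (50%) of the 15 endothelial identity genes matched of 28, in 8 of 10 (80.0%) of the 7 T cell genes matched of 15 and in 6 of 20 (30.0%) of the 18 bulge surface and secreted genes matched of 24. These matches describe letters in a window and are no evidence of binding.

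The 5 libraries held 23666873 to 46542177 counts over 55536 genes, and CPM (a gene's counts scaled to the same library total) are used as its level below. The tracer transcript was low in all 5, at 2.54 to 3.78 CPM in Sca-1neg and at 4.89 and 4.10 CPM in Sca-1+ libraries. It was at 133 to 307 CPM in 5 of the 6 traced libraries while the library labelled Sca-1neg tdT+ replicate 2 gave just 2.05 CPM, which goes against that label. Alb, the serum albumin of liver, was at 6099 CPM in Sca-1neg replicate 2 and at 3.04 and 5.0 CPM in replicates 1 and 3, and at 6.80 and 13.7 CPM in the Sca-1+ libraries. The 20 liver genes on a fixed list together took 1.96% of the counts of Sca-1neg replicate 2. That library correlated less with its own group (Spearman's rho 0.910 and 0.911 over genes) than replicates 1 and 3 did with each other (0.988), and the 2 Sca-1+ libraries gave 0.970. Liver transcripts were also high in 2 traced Sca-1neg libraries, labelled replicates 1 and 2, and results are given below also without these 3 libraries.

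The transcripts of the sorted proteins were checked first. Ly6a (ENSMUSG00000075602, chr15:74994877-74998031, minus strand of GRCm38) was at 5.74, 2.46 and 2.90 CPM in Sca-1neg replicates 1 to 3 and at 187 and 172 CPM in Sca-1+ replicates 1 and 2. The transcript followed the sort in each of the 5 libraries, which the gate itself selected for. Cd34 (ENSMUSG00000016494, chr1:194938819-194961279, plus strand), on which both fractions were gated, was at 864, 638 and 1130 CPM in Sca-1neg and at 320 and 383 CPM in Sca-1+ libraries. It fell by 1.32 ± 0.32 on the log2 scale (log2 fold change ± SE, edgeR adjusted p = 0.0367), with no overlap between the groups. Itga6, which encodes CD49f, rose from 615, 512 and 548 CPM to 1021 and 932 CPM (log2 fold change 0.81 ± 0.20, edgeR adjusted p = 0.0408). Cd4 was at 0.126 to 0.949 CPM in all 5 libraries and did not pass (edgeR adjusted p = 0.877). Leaving out Sca-1+ replicate 1 left 1 Sca-1+ library, taken to vary as much as libraries of the other groups do, and ended the calls of Ly6a, Cd34 and Itga6 (edgeR adjusted p = 0.0592, 0.309 and 0.326).

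Of 20307 genes tested, 748 (3.68%) were higher and 418 (2.06%) lower in Sca-1+ than in Sca-1neg cells at an edgeR adjusted p under 0.05, and the median log2 fold change of all genes tested was -0.13. Fold changes below are log2 values of Sca-1+ over Sca-1neg, each with its standard error, and in bulk libraries fewer cells of a type and less RNA per cell cannot be told apart. Among genes past the threshold whose groups did not overlap and whose higher group averaged 5 CPM or more, the 10 with the largest rise were Sox17, Rasgef1a, Gpr1, Aplnr, Sparcl1, Hlx, Slfn3, Osm, Sema3g and Klhl6, with log2 fold changes of 5.80 to 8.75. Sox17 (ENSMUSG00000025902, chr1:4490931-4497354, minus strand), a transcription factor of arterial endothelium, was at 0.0207, 0.0793 and 0 CPM in Sca-1neg and at 14.8 and 16.7 CPM in Sca-1+ libraries. The Sca-1neg libraries held 4 counts of Sox17 in all against 866 in the Sca-1+ libraries, so the fitted rise of 8.75 ± 1.27 (edgeR adjusted p = 0.00525) depends on the prior count. Aplnr, the apelin receptor of endothelium, was at 0.165, 0.766 and 0.0488 CPM against 23.8 and 44.8 CPM. Sparcl1, a secreted matrix protein, was at 1.07, 1.11 and 1.22 CPM against 102 and 120 CPM. Each of these was low in every Sca-1neg library and far higher in both Sca-1+ libraries. Osm, a cytokine of the IL-6 family, differed between the Sca-1+ libraries, at 2.15 and 18.7 CPM.

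By the same rule the 10 genes with the largest fall were Dpysl4, Cck, Angptl7, Krtap17-1, Vit, Scrg1, Gfra2, Gprasp2, Pdzrn4 and Il31ra, with log2 fold changes of -3.26 to -2.68. Il31ra, a receptor subunit for interleukin-31, was at 424, 190 and 469 CPM in Sca-1neg and at 58.7 and 54.0 CPM in Sca-1+ libraries (-2.68 ± 0.47, edgeR adjusted p = 0.0125). Pdzrn4 went from 110, 69.8 and 132 CPM to 16.4 and 15.8 CPM and Gfra2, a coreceptor for neurturin, from 64.8, 38.9 and 64.4 CPM to 9.33 and 7.12 CPM. All 3 were still measured in both Sca-1+ libraries. Without Sca-1neg replicate 2, 587 genes were higher and 298 lower, and without all 3 libraries with liver transcripts 1520 were higher and 553 lower. Without Sca-1+ replicate 1 the counts were 106 and 10, without Sca-1+ replicate 2 they were 367 and 126, without Sca-1neg replicate 1 they were 425 and 176 and without Sca-1neg replicate 3 they were 216 and 85.

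**Figure D1:**
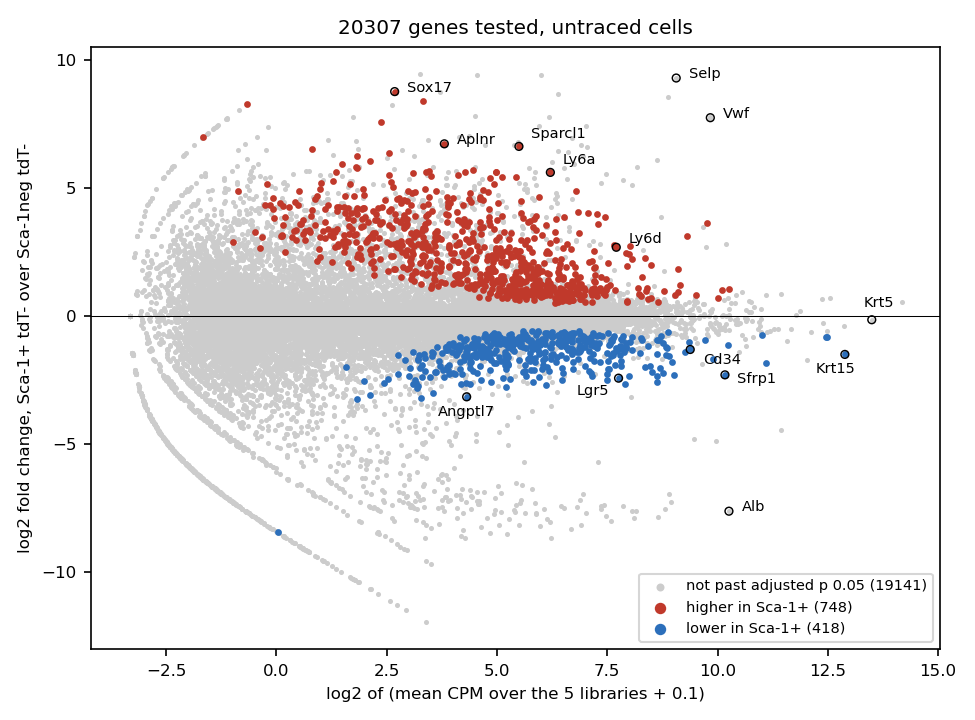
Log2 fold change of each of 20307 genes tested (y axis, Sca-1+ over Sca-1neg, untraced cells) against its mean level over the 5 libraries (x axis, log2 of CPM plus 0.1). The 748 genes higher in Sca-1+ are red, the 418 lower are blue and the rest grey, and Selp and Vwf lie far above 0 without passing the test, while Alb lies far below 0 and was high in 1 Sca-1neg library.

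Bulge genes were lower in the Sca-1+ fraction. Of 23 tested genes for bulge surface and secreted proteins 11 fell and none rose, where 2.06% of all genes tested fell. Cd34, on which both fractions were gated, is among the 11. All 23 log2 fold changes were negative, and their median was -1.66 against -0.13 for all genes. Groups did not overlap for 21 of the 23, on the lower side, where 26.4% of all genes tested did so. Krt15 (ENSMUSG00000054146, chr11:100131758-100135928, minus strand), a keratin of bulge and basal cells, was at 9280, 9868 and 11555 CPM in Sca-1neg and at 3425 and 3743 CPM in Sca-1+ libraries (-1.51 ± 0.27, edgeR adjusted p = 0.0107). Lgr5, a receptor for R-spondins that marks lower bulge and hair germ, was at 359, 217 and 387 CPM against 56.6 and 61.6 CPM (-2.44 ± 0.45, edgeR adjusted p = 0.0155). Lgr5 was named here after its values were seen. Cxcl14 (ENSMUSG00000021508, chr13:56288643-56296551, minus strand), a chemokine whose promoter is shown above, went from 3218, 3014 and 3053 CPM to 713 and 989 CPM (-1.86 ± 0.25, edgeR adjusted p = 0.00383). The 3 Sca-1neg libraries lay close together for Cxcl14, the one with liver transcripts included.

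Genes for secreted proteins were among the bulge genes that fell. Sfrp1, which binds Wnt proteins, was at 1494, 1906 and 1673 CPM in Sca-1neg and at 212 and 470 CPM in Sca-1+ libraries (-2.31 ± 0.36, edgeR adjusted p = 0.00717). Dkk3, of the Dickkopf family, was at 554, 525 and 671 CPM against 70.2 and 157 CPM, and Ltbp2, a matrix protein related to the latent TGF-beta binding proteins, at 315, 183 and 315 CPM against 39.2 and 55.3 CPM. In all 3 genes Sca-1+ replicate 1 was the lower of the 2 Sca-1+ libraries, and both were below every Sca-1neg library. Npnt, a ligand of integrin alpha 8 through which bulge cells anchor the arrector pili muscle, went from 234, 277 and 286 CPM to 48.7 and 76.8 CPM (-2.08 ± 0.31). Tgm5, a transglutaminase, went from 775, 550 and 971 CPM to 135 and 172 CPM (-2.32 ± 0.38). Angptl7, a secreted angiopoietin-like protein, fell most, by 3.17 ± 0.72. Grem1, a secreted BMP antagonist, also fell (530, 347 and 712 CPM against 80.4 and 152 CPM). Col17a1, a hemidesmosome collagen needed for stem cell upkeep, was at 7402, 5555 and 6939 CPM against 4566 and 4257 CPM and did not pass (edgeR adjusted p = 0.273).

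Of 16 bulge transcription factors 4 fell and none rose, where 2.06% of all genes tested fell. Of the 16, 15 were negative, with a median of -0.89. Tbx1 was at 548, 439 and 541 CPM in Sca-1neg and at 68.0 and 190 CPM in Sca-1+ libraries (-1.98 ± 0.38), and Lhx2, which keeps bulge cells in their state, at 715, 662 and 743 CPM against 120 and 280 CPM (-1.82 ± 0.39). Gli2, an effector of hedgehog signalling, and Hopx, a homeodomain protein of quiescent bulge cells, fell by 1.81 ± 0.41 and 1.41 ± 0.25. For Tbx1 and Lhx2 the Sca-1+ replicate 1 was the lower of the 2 libraries. Nfib and Vdr, at adjusted p values of 0.0518 and 0.0854 by edgeR, did not pass. The defining factor Sox9 was at 668, 551 and 730 CPM against 176 and 386 CPM (edgeR adjusted p = 0.136) and Tcf7l1 at 63.2, 56.5 and 49.5 CPM against 31.5 and 44.8 CPM (edgeR adjusted p = 0.257). Of the bulge surface genes 11 also fell without Sca-1neg replicate 2 and 12 without the libraries with liver transcripts, but 0 without Sca-1+ replicate 1 and 6 without Sca-1+ replicate 2.

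**Figure D2:**
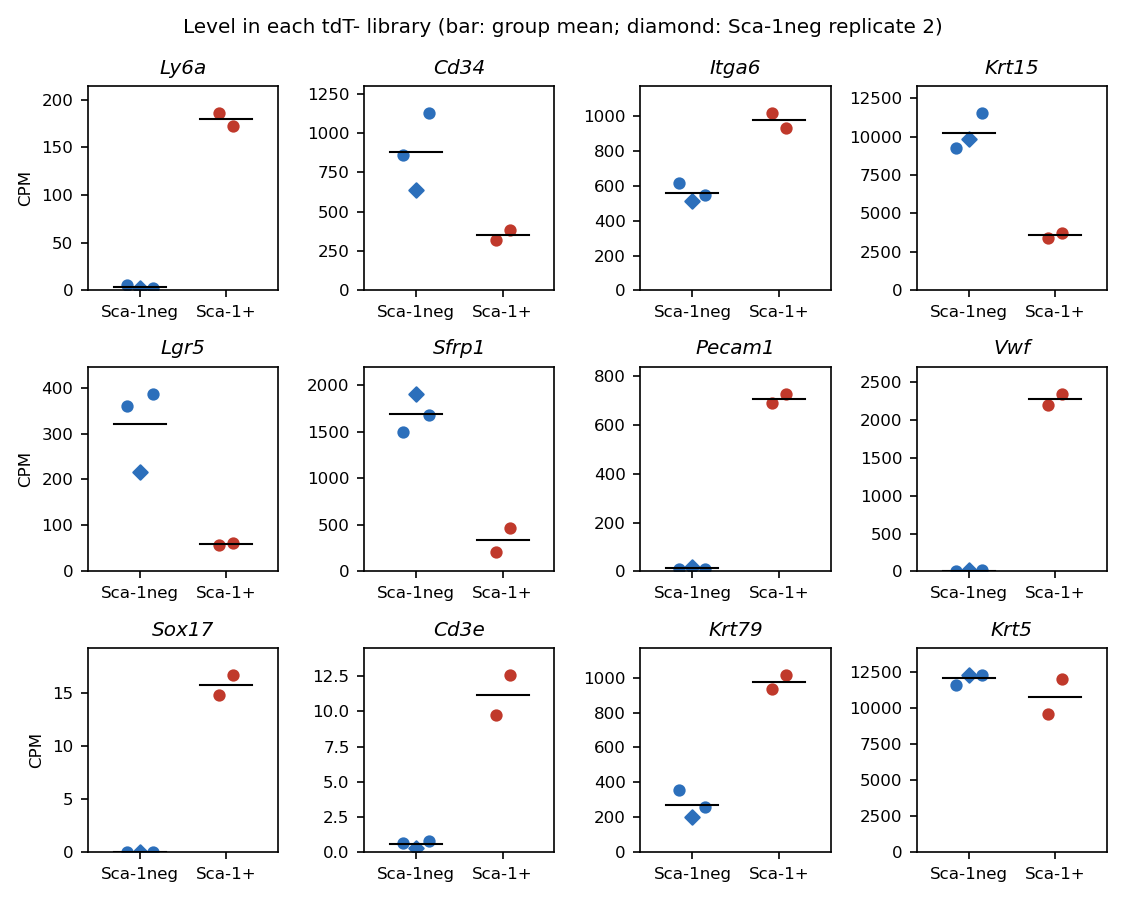
Level of 12 genes in each untraced library (y axis, CPM from 0; one point per library; bars are group means; the diamond is Sca-1neg replicate 2, which held liver transcripts). Krt15, Lgr5, Sfrp1 and Cd34 are lower in both Sca-1+ libraries, Ly6a, Itga6, Sox17, Cd3e, Krt79, Pecam1 and Vwf are higher, and Krt5 overlaps.

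Transcripts of blood vessel endothelium were present in both Sca-1+ libraries and low in the Sca-1neg libraries. The 28 endothelial identity genes summed to 115, 305 and 143 CPM in Sca-1neg and to 6836 and 7479 CPM in Sca-1+ libraries, and none of the 28 was at 0 in a Sca-1+ library. All 28 log2 fold changes were positive, with a median of 4.73, and groups did not overlap on the higher side for 26, where 19.9% of all genes did so. Only 5 of the 28 passed the adjusted threshold, as did 3.68% of all genes tested on the higher side. These were Cyyr1, Sox17, Ets1, Ramp2 and Fli1. Of the 28, 26 had an unadjusted p under 0.05 and were higher, as did 10.6% of all genes tested. Defining markers showed large differences that did not pass. Pecam1, the adhesion protein CD31, was at 7.98, 19.6 and 10.3 CPM in Sca-1neg and at 688 and 728 CPM in Sca-1+ libraries (5.81 ± 1.82, edgeR adjusted p = 0.120). Cdh5, the cadherin of endothelial junctions, was at 5.25, 20.1 and 7.22 CPM against 364 and 421 CPM (edgeR adjusted p = 0.128). Vwf, the von Willebrand factor, was at 1.55, 18.1 and 12.5 CPM against 2195 and 2346 CPM (7.73 ± 2.30, edgeR adjusted p = 0.105). In each of these the 2 Sca-1+ libraries nearly matched each other and lay far above all 3 Sca-1neg libraries.

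The spread used in the test came from all 11 libraries, and 1 traced library stood apart for these genes. The library labelled Sca-1neg tdT+ replicate 2 summed to 1692 CPM over the 28 genes, against 250 and 68.3 CPM in the other 2 of its group. Without it 18 of the 28 passed, without Sca-1neg tdT+ replicate 3 also 18, in a fit of the 5 untraced libraries alone 21, and without the 3 libraries with liver transcripts 26. Leaving out Sca-1+ replicate 1 left 2. In the fit of the 5 libraries Vwf had an edgeR adjusted p of 0.0328.

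Of the genes that passed with all libraries, Cyyr1 (ENSMUSG00000041134, chr16:85421533-85553397, minus strand), a small membrane protein, was at 5.37, 3.91 and 4.20 CPM in Sca-1neg and at 58.5 and 69.9 CPM in Sca-1+ libraries (3.83 ± 0.51, edgeR adjusted p = 0.00383). Ets1, which endothelium and lymphocytes share, was at 22.5, 36.8 and 28.2 CPM against 185 and 180 CPM (2.65 ± 0.40, edgeR adjusted p = 0.00784). Fli1, a related ETS factor, was at 0.785, 3.46 and 0.512 CPM against 38.1 and 31.1 CPM (4.45 ± 1.06). Cldn5, a tight junction protein of endothelium, and Gpihbp1, the capillary anchor of lipoprotein lipase, overlapped between the groups, with log2 fold changes of 0.17 ± 1.04 and 0.25 ± 1.47. Cldn5 was at 4.86, 10.8 and 6.44 CPM in Sca-1neg and at 7.94 and 8.59 CPM in Sca-1+ libraries.

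Among 21 genes of blood endothelial subtypes 4 rose (Aplnr, Rgcc, Sema3g and Ly6c1), none fell and the median was 4.02. For comparison, 3.68% of all genes tested rose. The adhesion receptors Selp and Sele (P-selectin and E-selectin), which activated and venous endothelium displays to leukocytes, did not pass with all libraries. Selp was at 1.80, 1.93 and 2.71 CPM in Sca-1neg and at 1350 and 1319 CPM in Sca-1+ libraries (edgeR adjusted p = 0.0844, and 0.000307 with the 5 libraries alone). Sele was at 3.64, 2.11 and 3.71 CPM against 1211 and 1126 CPM (edgeR adjusted p = 0.111, and 0.000529 with the 5 libraries alone). Of 22 vascular receptor and signalling genes 7 rose and none fell, with a median of 3.24. Nrp2, a coreceptor for VEGF-C and semaphorins, was at 26.7, 34 and 25.8 CPM against 189 and 207 CPM (2.78 ± 0.31, edgeR adjusted p = 0.00238). Calcrl and Ramp2, which together form the adrenomedullin receptor, rose by 3.03 ± 0.39 and 2.43 ± 0.55. Edn1, the vasoconstrictor endothelin-1, rose from 3.06, 1.40 and 1.61 CPM to 80.2 and 65.1 CPM (5.16 ± 1.01). The junction regulator Rasip1 rose by 3.89 ± 0.76. Without Sca-1+ replicate 1 none of the subtype genes and 2 of the receptor genes passed, and with the 5 libraries alone 11 and 14 rose.

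None of 7 tested lymphatic endothelial genes passed, and their median was -0.50. Fgl2, a secreted and membrane-bound fibrinogen-like protein on this list, was at 21.3, 27.2 and 20.7 CPM in Sca-1neg and at 190 and 171 CPM in Sca-1+ libraries, without overlap (2.97 ± 1.26, edgeR adjusted p = 0.236, and 0.00134 with the 5 libraries alone). Mmrn1, a matrix protein of lymphatic vessels and platelets, was at 23.3, 28 and 24.4 CPM against 19.2 and 11.2 CPM. Prox1, the lymphatic master regulator, was at 4.79, 68.1 and 2.81 CPM in Sca-1neg and at 9.14 and 5.32 CPM in Sca-1+ libraries. The highest Prox1 value was in the library with liver transcripts, and their part in it was not tested. Markers of the mural cells around vessels did not move with the endothelial genes. Of 12 tested pericyte and smooth muscle genes 2 rose (Notch3 and Mcam, both also expressed outside mural cells), 1 fell (Cspg4) and the median was -1.37. Over all genes tested 3.68% rose and 2.06% fell, so counts this small say little about a list. Rgs5, a pericyte marker, had no counts in either Sca-1+ library and was at 0.103, 7.35 and 0 CPM in Sca-1neg. Of 17 fibroblast genes 2 rose (Thy1 and Pi16) and 1 fell (Col6a1, from 535, 420 and 458 CPM to 82.1 and 150 CPM), and Pdgfra was at 1.10 to 3.92 CPM in all 5 libraries. In that list 12 genes were positive and 5 negative, and the median was 0.82. How much of the difference in any other gene went with the endothelial transcripts was not tested.

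**Figure D3:**
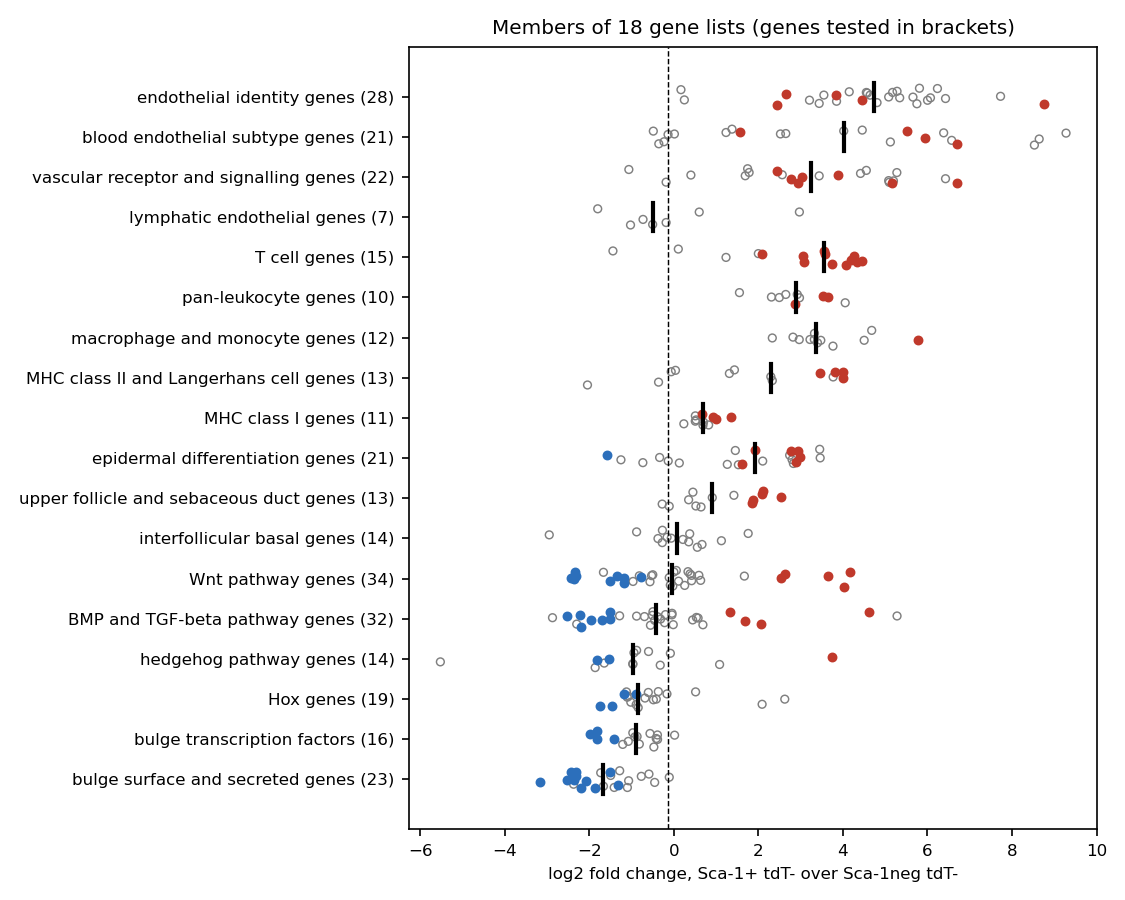
Log2 fold change (x axis, Sca-1+ over Sca-1neg) of each tested member of 18 gene lists. Filled points passed an adjusted p of 0.05 (red higher, blue lower) and open points did not. Black bars are list medians and the dashed line is the median of all genes, -0.13. The medians of the endothelial identity (4.73) and blood endothelial subtype lists (4.02) lie furthest to the right, with mostly open points. Those of the lymphatic (-0.50), hedgehog (-0.96), Hox (-0.84), BMP and TGF-beta (-0.42) and bulge lists lie left of the dashed line.

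Keratinocyte transcripts were high in both fractions. Krt5, the basal keratin, was at 11586, 12277 and 12320 CPM in Sca-1neg and at 9608 and 11985 CPM in Sca-1+ libraries, and Krt14, its partner, at 3856, 5010 and 3884 CPM against 6293 and 7203 CPM (edgeR adjusted p = 0.717 and 0.135). None of 14 interfollicular basal genes passed, and their median was 0.08. The 2 keratins that define the basal layer were abundant in all 5 libraries, and Krt5 overlapped between the groups.

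Of 13 genes of the upper follicle and its ducts 5 rose in Sca-1+ cells and none fell, with a median of 0.91. The share that rose over all genes tested was 3.68%. Klk7, a protease of cornified cells, was at 21.3, 19.5 and 21.6 CPM in Sca-1neg and at 82.7 and 96.0 CPM in Sca-1+ libraries (2.10 ± 0.23, edgeR adjusted p = 0.00215). Krt79, a keratin of the infundibulum and sebaceous duct, was at 358, 203 and 257 CPM against 937 and 1016 CPM (1.84 ± 0.32, edgeR adjusted p = 0.0106). The protease inhibitor Cst6 went from 80.3, 53.0 and 82.7 CPM to 301 and 224 CPM. Sprr1a, a cornified envelope precursor, and the protease Klk10 rose by 2.53 ± 0.28 and 2.09 ± 0.35. Lgr6, an isthmus stem cell marker on this list, overlapped at 204, 153 and 269 CPM against 186 and 201 CPM. Leaving out Sca-1neg replicate 2 gave 5 as well, and leaving out Sca-1+ replicate 1 left 3.

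Of 21 epidermal differentiation genes 6 rose and 1 fell, with a median of 1.91, where 3.68% and 2.06% of all genes tested did so. Grhl3, a transcription factor of the skin barrier, was at 10.7, 3.44 and 4.22 CPM in Sca-1neg and at 53.9 and 37.8 CPM in Sca-1+ libraries (2.90 ± 0.40, edgeR adjusted p = 0.00437). It was the 1 gene of 113 that kept its call under all 24 alternative analyses. Notch3, a receptor of suprabasal cells, went from 40.4, 32.9 and 22.9 CPM to 101 and 97.1 CPM. Krtdap, the desmosomal cadherins Dsg1a and Dsc1, and the calmodulin-like Calm4 also rose, each higher in Sca-1+ replicate 1 than in replicate 2. Dsg1a, for example, was at 101, 25 and 53.8 CPM in Sca-1neg and at 599 and 222 CPM in Sca-1+ libraries. The suprabasal keratins varied in the same way without passing. Krt10 was at 774, 101 and 170 CPM against 3511 and 1334 CPM (edgeR adjusted p = 0.112) and Krt1 at 369, 63.1 and 61.8 CPM against 2396 and 1207 CPM (edgeR adjusted p = 0.0646). Within each untraced fraction replicate 1, the only one from mice of 29 weeks, was the highest for both keratins. This did not hold for Krt10 in the traced replicates 1 to 3. It was at 1225, 2308 and 697 CPM in traced Sca-1neg and at 4725, 3204 and 5433 CPM in traced Sca-1+ libraries. With age as a factor in the fit 673 genes were higher and 357 lower. Calml3, a calmodulin-like protein of basal cells, fell by 1.58 ± 0.40. The differentiation count was 3 with the 5 libraries alone, 9 without the libraries with liver transcripts and 2 without Sca-1+ replicate 1.

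Keratins and regulators of the growing hair and the inner layers were mixed. Of 18 hair germ and matrix genes 3 rose and 1 fell, with a median of 1.23, where 3.68% and 2.06% of all genes tested did so. Krt73, an inner root sheath keratin, was at 8.06, 4.07 and 2.81 CPM in Sca-1neg and at 34.8 and 37.5 CPM in Sca-1+ libraries (2.86 ± 0.61, edgeR adjusted p = 0.0225). Ovol1, a transcriptional repressor, rose by 1.37 ± 0.32 and Padi3, a protein deiminase of hair and infundibulum, by 3.02 ± 0.79. Hoxc13, a regulator of hair keratins, fell from 34.8, 27.9 and 32.7 CPM to 7.94 and 14 CPM. None of the 4 passed without Sca-1neg replicate 2. Of 7 inner bulge and companion layer genes only Krt16 rose (124, 128 and 77.1 CPM against 503 and 513 CPM, 2.21 ± 0.37), while Krt6a and Krt17 overlapped between the groups. None of 11 sebaceous gland genes passed and their median was -0.72, and Scd1 was at 1222 CPM in Sca-1neg replicate 2 against 345 and 221 CPM in replicates 1 and 3.

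Signalling genes moved in both directions, with receptors on either side. Of 34 Wnt pathway genes 5 rose and 9 fell, with a median of -0.05, where 3.68% and 2.06% of all genes tested did so. Among the Frizzled receptors Fzd2 was at 419, 330 and 371 CPM in Sca-1neg and at 54.1 and 92.6 CPM in Sca-1+ libraries (-2.35 ± 0.31, edgeR adjusted p = 0.00383). Fzd4, a receptor that endothelium uses for norrin, went the other way, from 9.86, 12.8 and 7.76 CPM to 61.5 and 64.7 CPM (2.64 ± 0.41, edgeR adjusted p = 0.0069). Fzd1, Fzd3 and Fzd8 fell and Fzd10 rose. The R-spondin receptor Lgr4 fell from 347, 311 and 406 CPM to 113 and 167 CPM, as did Lgr5, and the coreceptor Lrp6 fell by 0.78 ± 0.19. The ligands Wnt3 and Wnt16 and the R-spondin Rspo3 rose from low levels. Wnt3 was at 6.90, 1.40 and 2.34 CPM against 82.7 and 46.5 CPM (4.18 ± 0.86). Without Sca-1+ replicate 1 no Wnt gene passed on the higher side and 1 on the lower, and without Sca-1neg replicate 2 the counts were 2 and 7.

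Of 32 BMP and TGF-beta pathway genes 4 rose and 7 fell, with a median of -0.42, where 3.68% and 2.06% of all genes tested did so. Receptors made up 3 of the 4 that rose. Acvrl1, the type I receptor ALK1 of endothelium, went from 34.2, 30.6 and 31.7 CPM to 106 and 100 CPM (1.68 ± 0.27, edgeR adjusted p = 0.00746). Tgfbr2 went from 95.3, 94.0 and 92 CPM to 235 and 233 CPM (1.32 ± 0.24), and Tgfbr3 from 34.1, 26.9 and 27.7 CPM to 134 and 112 CPM. The ligand Bmp4 rose from 3.72, 2.01 and 1.22 CPM to 75.3 and 39.2 CPM. The 4 Id genes, inhibitors of differentiation that BMP signalling is known to induce, all fell. Id2 was at 162, 128 and 258 CPM in Sca-1neg and at 39.8 and 53.9 CPM in Sca-1+ libraries (-1.96 ± 0.33, edgeR adjusted p = 0.00874). Id1, Id3 and Id4 fell by 1.69 ± 0.41, 1.52 ± 0.37 and 2.23 ± 0.43. Ltbp3, a latent TGF-beta binding protein, fell by 1.52 ± 0.26, while Ltbp4 overlapped between the groups (-0.01 ± 0.26). None of the 32 passed without Sca-1+ replicate 1.

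Of 14 hedgehog pathway genes 1 rose, 2 fell and 12 were negative, with a median of -0.96. Over all genes tested 3.68% rose and 2.06% fell, so counts of 1 or 2 calls say little about a list. The coreceptor Boc fell from 275, 216 and 311 CPM to 79.3 and 106 CPM (-1.53 ± 0.30, edgeR adjusted p = 0.0155), as did Gli2 above. Gas1, another coreceptor, was at 496, 423 and 471 CPM against 97.6 and 198 CPM and did not pass (edgeR adjusted p = 0.0584). The ligand Dhh, which Schwann cells and endothelium make, rose from 0.785, 1.14 and 0.488 CPM to 8.99 and 12.6 CPM. Of 17 Notch pathway genes 2 rose and none fell, Notch3 and the ligand Dll1 (31.5, 25.2 and 17.5 CPM against 104 and 70.2 CPM), while Notch1 and Jag2 did not pass. Of 19 tested Hox genes, which carry the position of a cell along the body axis, 4 fell and none rose. Hoxc8, which fell most among them, was at 92.5, 69.0 and 112 CPM against 20.2 and 34.3 CPM (-1.74 ± 0.37), and Hoxc6, Hoxa5 and Hoxa7 fell by 0.90 to 1.47 on the log2 scale. None of these hedgehog and Hox genes passed without Sca-1+ replicate 1, and Notch3 was the 1 Notch gene that did.

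T cell genes were higher in Sca-1+ than in Sca-1neg cells, both sorted as tdTneg. Of 15 genes 11 rose and none fell, with a median of 3.55, where 3.68% of all genes tested rose. Their sum was 38.3, 34.7 and 38.2 CPM in Sca-1neg and 187 and 173 CPM in Sca-1+ libraries, against 501 to 1286 CPM in the traced Sca-1+ libraries. Cd3e (ENSMUSG00000032093, chr9:44998740-45009627, minus strand), a chain of the T cell receptor complex whose promoter is shown above, was at 0.661, 0.317 and 0.829 CPM in Sca-1neg and at 9.78 and 12.6 CPM in Sca-1+ libraries (4.20 ± 0.49, edgeR adjusted p = 0.00301). Trdc, the constant part of the delta chain that skin resident T cells carry, was at 1.55, 0.159 and 1.07 CPM against 19.9 and 18.1 CPM (4.34 ± 0.74). Tcrg-C1, of the gamma chain, rose by 4.26 ± 0.63 and Trac, of the alpha chain, by 3.07 ± 0.61. Cd2, Cd247 and the kinase Zap70 rose as well. Trbc2, of the beta chain, was at 6.74, 7.93 and 8.68 CPM against 9.46 and 7.29 CPM, which overlapped. Thy1, which fibroblasts also express, went from 23.8, 18 and 21.8 CPM to 93.7 and 86.5 CPM within these sums. Cd28, a T cell costimulatory receptor, had no counts in either Sca-1+ library. The count was 9 without Sca-1neg replicate 2, 13 without the libraries with liver transcripts and 5 without Sca-1+ replicate 1.

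Other immune lists rose in part, where 3.68% of all genes tested rose. Of 10 pan-leukocyte genes 3 rose (Ikzf1, Coro1a and Cd53), all 10 were positive and the median was 2.89, and 9 rose without Sca-1neg replicate 2, in which the list summed to 62.4 CPM against 13.1 and 9.42 CPM in replicates 1 and 3. Of 12 macrophage and monocyte genes only Itgam rose, although all 12 were positive. Their sum was 144 CPM in Sca-1+ replicate 1 and 979 CPM in replicate 2, so the 2 Sca-1+ libraries did not hold alike amounts of these transcripts. Lyz2, lysozyme of myeloid cells, was at 38.2 and 352 CPM in them and at 1.84, 20.7 and 0.366 CPM in Sca-1neg libraries (edgeR adjusted p = 0.264). Of 2 tested mast cell genes Hdc, the histamine-forming enzyme, rose from 1.47, 2.67 and 1.20 CPM to 36.6 and 61.9 CPM (4.79 ± 0.71, edgeR adjusted p = 0.00654), while Kit overlapped and the mast cell protease gene Cma1 had no counts in either Sca-1+ library.

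Some antigen presentation genes rose, as did 3.68% of all genes tested. Of 13 MHC class II and Langerhans cell genes 4 rose, H2-Aa, H2-Eb1, H2-Ab1 and the invariant chain Cd74, none fell and the median was 2.29. Epcam, which Langerhans cells and keratinocytes share, was at 377, 336 and 346 CPM against 246 and 304 CPM and did not pass (edgeR adjusted p = 0.394). Cd74 was at 25.6, 26.2 and 5.61 CPM in Sca-1neg and at 284 and 327 CPM in Sca-1+ libraries (4.0 ± 0.84, edgeR adjusted p = 0.0329). Cd207, the langerin of Langerhans cells, was at 1.49, 0.952 and 0.927 CPM against 21.4 and 9.34 CPM and did not pass (edgeR adjusted p = 0.0993). Of 11 MHC class I genes 4 rose by small steps and all 11 were positive, with a median of 0.69. H2-D1 went from 874, 921 and 702 CPM to 1317 and 1333 CPM (0.67 ± 0.17, edgeR adjusted p = 0.0425), and Nlrc5, which activates these genes, from 116, 85.7 and 68.7 CPM to 269 and 193 CPM (1.36 ± 0.27). The proteasome subunits Psmb8 and Psmb9 rose by 0.99 ± 0.19 and 0.93 ± 0.22. Of 22 interferon-stimulated genes the GTPases Gbp2 and Gbp4 rose, all 22 were positive and the median was 1.77. No member of the 3 lists passed without Sca-1+ replicate 1, and no test here says which cells carried these transcripts.

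**Figure D4:**
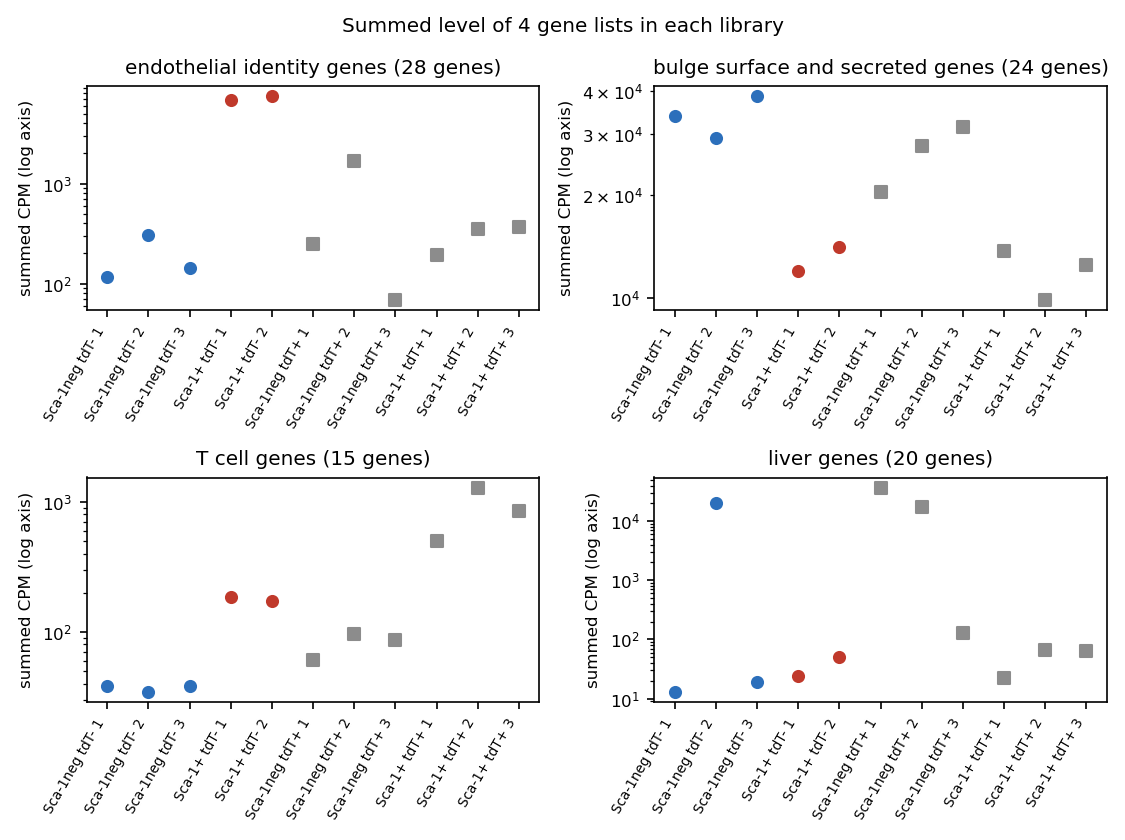
Summed CPM (log axis) of 4 gene lists in each of the 11 libraries, untraced libraries as circles (blue Sca-1neg, red Sca-1+) and traced libraries as grey squares. The endothelial sum is 6836 and 7479 CPM in the Sca-1+ untraced libraries and at most 1692 CPM elsewhere, the bulge sum is 11984 and 14077 CPM in them against 29274 to 38666 CPM in Sca-1neg untraced libraries, and the liver sum is high in 3 libraries of the Sca-1neg sorts.

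Some genes for adhesion to the basement membrane differed, in both directions. Of 24 basement membrane and hemidesmosome genes 3 rose and 1 fell, with a median of 0.24, and of all genes tested 3.68% rose and 2.06% fell. Groups did not overlap for 11 of the 24 on the higher side and 6 on the lower, against 19.9% and 26.4% of all genes tested. Hspg2, the proteoglycan perlecan, was at 438, 466 and 312 CPM in Sca-1neg and at 659 and 859 CPM in Sca-1+ libraries (0.91 ± 0.21, edgeR adjusted p = 0.0308), and Lama4, a laminin chain of vessel walls, at 22.2, 19.5 and 19.1 CPM against 50.2 and 49.9 CPM (1.30 ± 0.26). Agrn, the proteoglycan agrin, fell from 1748, 1450 and 1458 CPM to 622 and 800 CPM (-1.13 ± 0.26). Of 16 integrin subunits Itga6 and Itga5 rose, Itga5, of the fibronectin receptor, from 59.3, 62.7 and 55.9 CPM to 156 and 208 CPM (1.62 ± 0.25, edgeR adjusted p = 0.0068). Itgb4, the partner of Itga6 in hemidesmosomes, was at 776, 722 and 648 CPM against 788 and 871 CPM and did not pass (edgeR adjusted p = 0.631). Of 15 desmosome and adherens junction genes only the plakophilin Pkp1 rose (945, 928 and 744 CPM against 1730 and 1819 CPM, 1.02 ± 0.17, edgeR adjusted p = 0.00843), and Dsp and Perp overlapped. Without Sca-1+ replicate 1 Itga5 was the only one of these genes to pass, and with the 5 libraries alone Hspg2 had an edgeR adjusted p of 0.0523.

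The Ly6 family, to which Sca-1 belongs, rose beyond the gated gene. Of 13 tested members 5 rose, Ly6a among them, and none fell, with a median of 2.18, where 3.68% of all genes tested rose. Ly6d, a keratinocyte and lymphocyte surface protein, was at 79.7, 52.4 and 66.8 CPM in Sca-1neg and at 456 and 389 CPM in Sca-1+ libraries (2.67 ± 0.24, edgeR adjusted p = 0.00116). Ly6e, a receptor of broad expression, was at 120, 183 and 91.1 CPM against 530 and 725 CPM (2.25 ± 0.38). Ly6c1, an endothelial and lymphocyte marker, rose from under 2 CPM in each Sca-1neg library to 38.5 and 45.6 CPM, and Lynx1, a modulator of nicotinic receptors, rose by 1.17 ± 0.29. Ly6c1 and Ly6c2 are near copies, as are several H2 genes, and Ly6a is of the same family as the former, so reads may have been split between related genes. Only Ly6d of the family passed without Sca-1+ replicate 1 and 3 without Sca-1neg replicate 2.

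The Sca-1 difference in untraced cells was set against that in traced cells in one fit, in which the 2 differences share no library. The difference itself passed for 98 of 20307 genes, 95 (0.468%) with a more positive log2 fold change in untraced cells and 3 (0.0148%) with a more negative one. Cd34 fell in untraced cells by 1.32 and in traced cells by 4.64 on the log2 scale, a difference of 3.31 (edgeR adjusted p = 0.00695). Cyyr1 rose in untraced cells and was at -2.43 in traced cells (difference 6.27, edgeR adjusted p = 0.00522). Fzd4 differed likewise (2.64 against -2.27, difference 4.91, edgeR adjusted p = 0.00559). Klk7 was at 2.10 and 0.46 (difference 1.64, edgeR adjusted p = 0.0457). None of the 15 T cell genes passed this test, and Cd3e was at 4.20 in untraced and 3.87 in traced cells (edgeR adjusted p = 0.891). The traced side includes the library labelled Sca-1neg tdT+ replicate 2 with its low tracer level, and 26 to 347 genes passed when libraries were left out in turn.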

How the data were processed

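Libraries of total RNA from sorted cells were made with the TruSeq RNA v2 kit, per the labels' protocols, and the submitters' processing notes name bcl2fastq 2.20.0.422, FastQC, STAR, featureCounts, DESeq2 1.18.1 and the mm10 build. The deposited values are raw read counts per gene, 1 table per library, and annotation release, strand setting and treatment of multimapping reads were not given in the sources used here. The kit marks no strand, so reads of overlapping genes cannot be told apart. Gene symbols of 55450 of 55536 identifiers and coordinates came from GENCODE M21 (GRCm38).

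Counts were tested with edgeR 4.0.16 (R 4.3.3; TMM, filterByExpr, robust quasi-likelihood fit of 4 group means on all 11 libraries, 7 residual degrees of freedom), which left 20307 genes, with Benjamini-Hochberg adjustment over all of them and a threshold of 0.05. The Sca-1 difference in untraced minus that in traced cells came from the same fit, and alternatives used DESeq2 1.42.0 and limma 3.58.1. Depth was 23666873 to 46542177 counts per untraced library. No 2 of the 5 untraced libraries agreed within counting noise (chi-square per degree of freedom at least 45.5). Of 614 distinct genes on 40 lists 613 were found. Named were the 10 genes per direction with the largest fold change among those past the threshold (at least 5 CPM in the higher group, no overlap, no predicted genes, pseudogenes, Rik clones or receptor segments), the sort markers, and of each list up to 5 members with the lowest p past the threshold and the 2 with the highest mean CPM; other genes named (Lgr5, Grem1, Sox9, Tcf7l1, Pecam1, Cdh5, Cldn5, Gpihbp1, Prox1, Rgs5, Pdgfra, Lgr6, Krt1, Dsc1, Calml3, Trac, Trbc2, Cd28, Cd207, Cma1, Dct and the further Wnt, TGF-beta and Id genes) were chosen after their values were seen. Members and lists were chosen with earlier results of these data known. The scripts were tested on simulated data.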

Additional observations from a re-analysis of the deposited data

Results flagged for a closer look

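The Sca-1 difference differed between untraced and traced cells, by the edgeR test of the difference itself over all genes, for 16 of the genes named. Each value is the log2 fold change (Sca-1+ over Sca-1neg) in untraced cells minus that in traced cells, and all 16 were positive. Among endothelial and vascular genes it was 9.81 for Sox17, 6.27 for Cyyr1, 5.41 for Ramp2, 4.19 for Nrp2 and 3.56 for Calcrl. It was 4.91 for the receptor Fzd4 and 2.92 for the receptor Acvrl1. Among matrix and adhesion genes it was 2.22 for Lama4, 2.16 for Hspg2, 2.39 for Itga5 and 1.82 for Sparc. It was 3.31 for Cd34, 5.15 for the root sheath keratin Krt73 and 1.64 for the protease Klk7. It was 6.13 for Hdc and 2.63 for Lipe, a lipase of fat cells. The 28 endothelial identity genes summed to 6836 and 7479 CPM in the untraced Sca-1+ libraries and to 195 to 365 CPM in the traced ones, and the part of this in the other differences was not tested.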

How the results depend on the processing

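The 170 genes named by the rule were run under 24 alternative analyses, which were not run gene by gene for those named after their values were seen. Combinations in which a gene was not tested or got no adjusted p are not counted below, also not as lost calls. DESeq2 gave no adjusted p for Rasgef1a, Sparcl1 and Ly6c1, which rose in the main fit. It gave none either for Vwf, Plvap, Selp, Sele, Tie1 and Fabp4. None of the 170 reversed a call, and they kept their side of the threshold in 3270 of their combinations with alternatives, lost a call in 674 and gained one in 116. Of 113 named genes past the threshold 92 lost their call without Sca-1+ replicate 1, 56 without Sca-1+ replicate 2, 26 without Sca-1neg replicate 2, 23 with the replicate block and 18 with the 5 libraries alone. Counts are given as genes higher, genes lower, endothelial identity genes higher, and genes whose Sca-1 difference differed between untraced and traced cells, against 748, 418, 5 and 98. DESeq2 gave 1741, 1209, 15 and 841, and limma voom with quality weights 2349, 1911, 26 and 690, with 18 bulge surface genes lower. A liver score as covariate gave 1522, 788, 21 and 201. The 5 libraries alone gave 1284, 719 and 21, with no traced cells to compare. Leaving out the 3 libraries with liver transcripts gave 1520 higher, 26 endothelial and 220 differing. Testing against a log2 fold change of 1 gave 110, 13, 2 and 28, with 0 bulge and 6 T cell genes. The 32-week libraries alone, with 1 Sca-1+ library, gave 9, 0, 0 and 0, and 0 bulge and 0 T cell genes (edgeR, 1630 genes at an unadjusted p under 0.05). Endothelial genes numbered 11 with at least 10 CPM in 2 libraries and 3 with age as a factor, and the differing genes numbered 156 with DESeq2 size factors, 234 with no low-count filter and 172 with the 10 CPM filter. Leaving out each library gave 106 to 1075 higher, 10 to 590 lower, 2 to 18 endothelial, 0 to 13 bulge, 5 to 12 T cell and 26 to 347 differing genes. Replicate numbers do not mark shared mice in the labels, and the replicate block gave 696 higher, 331 lower and 6 endothelial genes, 9 bulge, 10 T cell and 123 differing genes, with 601 and 292 of the higher and lower genes shared. Over genes, the difference of replicate 1 from replicate 2 correlated at 0.183 between the Sca-1+ and Sca-1neg untraced groups, and at 0.256 between the untraced and traced Sca-1+ groups. The causes of these changes were not tested. With 2 Sca-1+ libraries, genes with few counts in Sca-1neg cells have wide errors.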

Other observations

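None of 20 proliferation genes passed, although 18 were positive with a median of 0.62 and 14 did not overlap between the groups on the higher side (19.9% of all genes), and Mki67 was at 146, 96.0 and 127 CPM in Sca-1neg and at 205 and 257 CPM in Sca-1+ libraries (log2 fold change 0.91 ± 0.31, edgeR adjusted p = 0.118). None of 38 cytosolic ribosomal protein genes passed, and 34 were negative with a median of -0.38. Of 6 tested mitochondrially encoded genes mt-Cytb and mt-Nd4 fell, by 0.85 ± 0.21 and 0.74 ± 0.19 on the log2 scale, and all 6 were negative. Both calls were lost with the 5 libraries alone (edgeR adjusted p = 0.0832 and 0.0768) and without Sca-1+ replicate 1 (0.286 for both), and the listed genes mt-Co2, mt-Co3 and mt-Atp6 had no counts in the 5 libraries. Of 24 immediate early and stress genes, which respond to cell isolation, only Klf2, also an endothelial factor, rose (61.1, 55.0 and 43.6 CPM against 108 and 120 CPM), and the median was -0.33. Of all genes tested 3.68% rose and 2.06% fell. Groups did not overlap for 3 of the 24 on the higher side and 12 on the lower, against 19.9% and 26.4% of all genes tested.

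Of 10 melanocyte genes Mitf fell (78.0, 40.5 and 97.4 CPM against 22.7 and 21.7 CPM) and Gpnmb rose (12.3, 12.2 and 9.25 CPM against 41.9 and 60.2 CPM), while the pigment enzyme gene Dct, at 35.3, 33.8 and 37.2 CPM against 18.6 and 6.16 CPM, did not pass (edgeR adjusted p = 0.326). Over all genes tested 3.68% rose and 2.06% fell, so single calls in either direction say little about the list. None of 6 tested Schwann and Merkel cell genes and none of 5 erythroid genes passed. Of 3 tested adipocyte genes Lipe rose (1.27 ± 0.32), and Fabp4, which endothelium also expresses, was at 1.57, 4.89 and 3.71 CPM against 377 and 267 CPM (edgeR adjusted p = 0.130). None of 20 liver genes passed, with a median of -7.60, and Alb had a log2 fold change of -7.63 with all libraries and 1.39 without those with liver transcripts. Their other named gene, Hp, gave -6.96 and 2.02.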
